A study of Caenorhabditis elegans with 10 samples.

Results

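The genes described here are acox-1, maoc-1, dhs-28 and daf-22 of Caenorhabditis elegans, whose enzymes shorten the fatty acid side chains of ascarosides. They were found by gene symbol, with 1 transcript standing for each gene (the one with the highest mean level), and are 4 of the 40857 gene symbols measured. All 4 were among the 16085 genes that reached 1 FPKM (fragments per kilobase of transcript per M mapped reads) in at least 2 libraries.

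Ascarosides are glycosides of the sugar ascarylose that C. elegans releases as pheromones, and several of them together induce the dauer larva, a long-lived larva specialised for survival. Their side chains are made by repeated cycles of β-oxidation in peroxisomes: the acyl-CoA oxidase ACOX-1 starts a cycle, the enoyl-CoA hydratase MAOC-1 and the hydroxyacyl-CoA dehydrogenase DHS-28 carry it on, and the thiolase DAF-22 ends it by cutting off the shortened chain. Worms without daf-22 or dhs-28 do not make the short-chain ascarosides of the dauer pheromone. Dauer formation is also governed by insulin/IGF-1 signalling, in which the receptor DAF-2 keeps the FOXO transcription factor DAF-16 out of the nucleus; MATH-33 is a deubiquitylating enzyme.

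Polyadenylated RNA of about 3000 whole worms per sample was sequenced as stranded paired-end libraries from 5 strains: daf-2(e1370);math-33(tm3561), daf-2(e1370), daf-16(mu86);daf-2(e1370), math-33(tm3561) and the wild type N2. Every strain was raised at 15 °C as a partly synchronised population and was either moved to 25 °C around the L3 to L4 larval stages for 22 hr or left at 15 °C, and all samples are labelled as L4 larvae or preadults. The labels call 15 °C permissive and 25 °C restrictive, and the daf-2 allele is temperature-sensitive. Each of the 10 groups has 1 library, so a difference between 2 libraries cannot be checked against replicates and carries no p-value. Below, the strains are named without their alleles.

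Depth was 25.21 to 35.22 M reads per library, and the 4 genes rested on 496 to 4097 read pairs per library. The math-33 transcript stood at 13.9 to 15.9 FPKM in the 4 libraries with the math-33 deletion and at 59.8 to 79.3 FPKM in the other 6. All 7 of the longer daf-16 transcripts had fewer reads beyond the shortest one in both daf-16;daf-2 libraries than in any other library. Markers of intestine, hypodermis, muscle, neurons, germline, sperm and oocytes were all above 0 in every library. Since whole worms were sequenced, fewer cells of a type and less RNA per cell cannot be told apart. No other transcript in the table overlaps the span of any of the 4 genes.

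Among acox-1, maoc-1, dhs-28 and daf-22, the RNA level of acox-1 was the lowest. Other genes of the oxidase step are described further below. The gene acox-1 (F08A8.1, now called acox-1.1) lies on chromosome I at 12939320 to 12942109 of ce10, and its transcript has 1683 bases. At 25 °C it stood at 27.9 FPKM in daf-2;math-33, 25.6 FPKM in daf-2, 43.3 FPKM in daf-16;daf-2, 28.2 FPKM in math-33 and 31.1 FPKM in N2. At 15 °C it stood at 36.99 FPKM in daf-2;math-33, 34.8 FPKM in daf-2, 30.4 FPKM in daf-16;daf-2, 27.8 FPKM in math-33 and 36.8 FPKM in N2. The highest library was daf-16;daf-2 at 25 °C, whose 95% counting interval (40.7 to 45.9 FPKM) did not reach that of the next library. Each of the other 9 overlapped its neighbour in the order of levels, down to daf-2 at 25 °C.

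The table holds 2 longer models of acox-1, of 1930 and 2017 bases, which start or end outside the short one. Only 3.91 to 6.58% of the reads of the first and 4.56 to 7.33% of those of the second lay beyond the short model. The value of acox-1 is therefore almost wholly that of the part the 3 models share, in all 10 libraries.

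The hydratase gene maoc-1 (E04F6.3, chromosome II, 7196297 to 7197350, transcript of 892 bases) came next. At 25 °C it stood at 40.5 FPKM in daf-2;math-33, 51.6 FPKM in daf-2, 59.05 FPKM in daf-16;daf-2, 40.9 FPKM in math-33 and 47.6 FPKM in N2. At 15 °C it stood at 48.7 FPKM in daf-2;math-33, 46.03 FPKM in daf-2, 60.8 FPKM in daf-16;daf-2, 44.1 FPKM in math-33 and 53.9 FPKM in N2. Both daf-16;daf-2 libraries led the order, and daf-2;math-33 at 25 °C was last. Neighbouring libraries in that order had overlapping counting intervals throughout.

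The dehydrogenase gene dhs-28 (M03A8.1, chromosome X, 6818406 to 6819950, transcript of 1304 bases) had the highest level of the 4 in every library. At 25 °C it stood at 122 FPKM in daf-2;math-33, 153 FPKM in daf-2, 141 FPKM in daf-16;daf-2, 82.3 FPKM in math-33 and 122 FPKM in N2. At 15 °C it stood at 149 FPKM in daf-2;math-33, 178 FPKM in daf-2, 161 FPKM in daf-16;daf-2, 114 FPKM in math-33 and 150.2 FPKM in N2. The math-33 strain was lowest at each temperature, and its library at 25 °C lay apart from all others by its interval (78.4 to 86.3 FPKM). The daf-2 library at 15 °C lay apart at the upper end (173 to 184 FPKM).

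The thiolase gene daf-22 (Y57A10C.6, chromosome II, 12423544 to 12425626, transcript of 1234 bases) was close to level outside the math-33 strain. At 25 °C it stood at 107 FPKM in daf-2;math-33, 109 FPKM in daf-2, 118.7 FPKM in daf-16;daf-2, 74.4 FPKM in math-33 and 110.1 FPKM in N2. At 15 °C it stood at 109.5 FPKM in daf-2;math-33, 102 FPKM in daf-2, 104 FPKM in daf-16;daf-2, 84.5 FPKM in math-33 and 104 FPKM in N2. The 2 math-33 libraries were the lowest, each apart from its neighbours by its counting interval, whereas the other 8 formed an unbroken run of overlapping intervals.

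**Figure D1:**
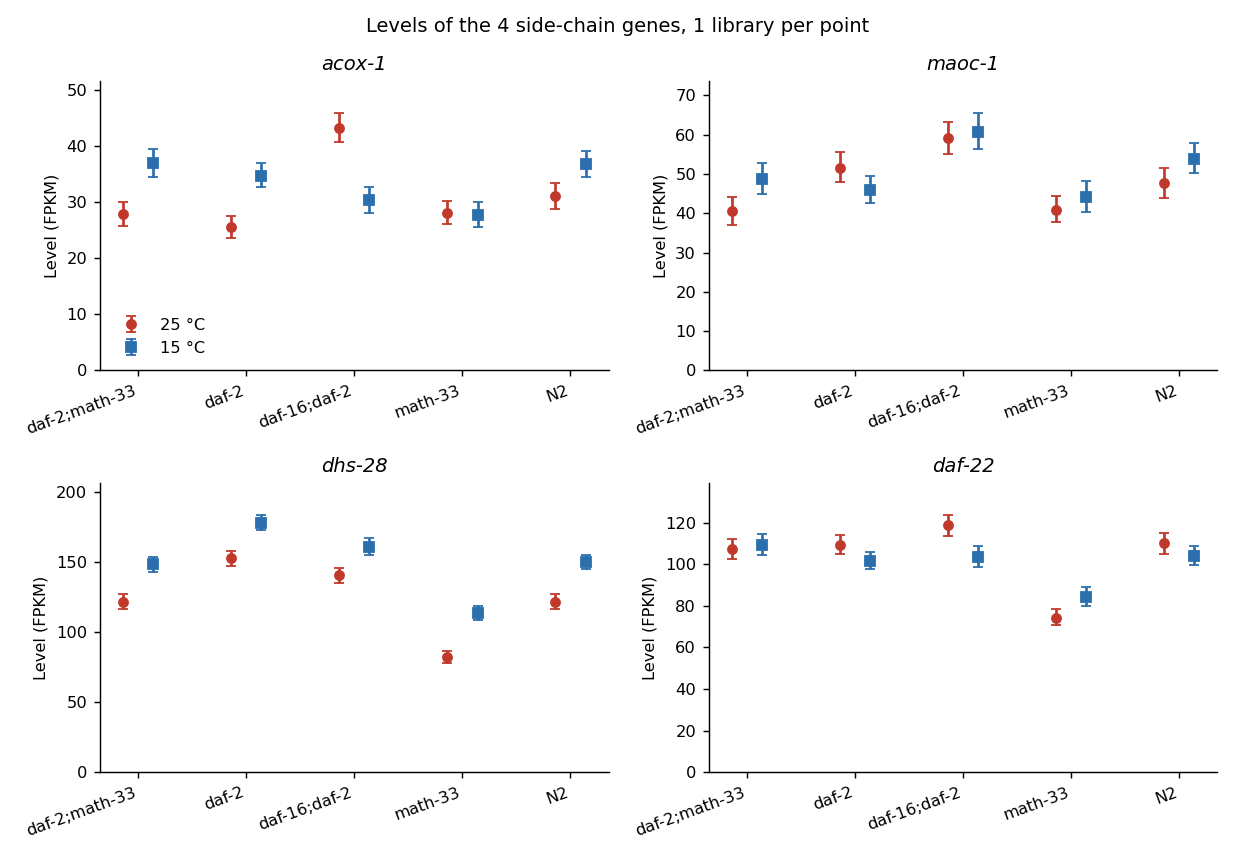
Level of each gene in FPKM (linear axes from 0) in the 5 strains at 25 °C (red circles) and 15 °C (blue squares), 1 library per point; bars are 95% counting intervals. The acox-1 value of daf-16;daf-2 at 25 °C (43.3 FPKM) stands above the rest, and both math-33 values of daf-22 (74.4 and 84.5 FPKM) lie below the rest.

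The order of the levels per kilobase, dhs-28 above daf-22 above maoc-1 above acox-1, held in 10 of 10 libraries with no overlap of counting intervals. The ratio of dhs-28 to daf-22 ran between 1.11 in math-33 at 25 °C and 1.75 in daf-2 at 15 °C. The ratio of daf-22 to maoc-1 ran between 1.71 and 2.65, and that of maoc-1 to acox-1 between 1.32 and 2.02. The 4 genes therefore kept their order while their proportions moved.

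Their variation over the 10 libraries was moderate. The highest level exceeded the lowest 1.69-fold for acox-1, 1.5-fold for maoc-1, 2.17-fold for dhs-28 and 1.6-fold for daf-22. Among the 8335 genes with a mean of at least 10 FPKM, the SD of log2(FPKM + 1) of dhs-28 lay at the 51.8th percentile and that of acox-1 at the 30.1st. The SDs of maoc-1 and daf-22 lay at the 20.3rd and 20.8th percentiles. Of the 60 differences between paired libraries of interest (4 genes, 10 genotype pairs and 5 temperature pairs), 0 reached 1 unit on the log2(FPKM + 1) scale. At that size, between 1.97 and 13.3% of all genes passed in one direction in such a pair. Only 3 reached 0.5 unit, a size that 7.37 to 27.6% of all genes passed in one direction in such a pair, and they are named below. For 44 of the 60 differences the counting interval left out equality. By that rule 19.3 to 36.9% of all genes were higher and 15.4 to 32.4% lower in such a pair. These intervals narrow as read pairs rise, and all genes include those near the filter of 1 FPKM. The 4 genes and all genes are therefore not matched for level in this count.

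The comparison of math-33 with N2 asks what accompanies loss of the deubiquitylase while the receptor is intact. All 4 genes were lower in math-33 at both temperatures. At 25 °C dhs-28 was 1.48-fold lower in math-33 (82.3 FPKM, against 122 FPKM in N2, 95% counting interval of the fold 1.39 to 1.58), and daf-22 was also 1.48-fold lower (74.4 FPKM in math-33, against 110.1 FPKM in N2, interval 1.38 to 1.59). These 2 genes passed 0.5 log2 unit, a size at which 16.2% of all genes were lower in that pair. For maoc-1 the fold lower was 1.16 (interval 1.03 to 1.304) and for acox-1 it was 1.11 (0.996 to 1.23), which includes no difference.

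At 15 °C the same comparison gave 1.32-fold lower levels in math-33 for dhs-28 (interval 1.25 to 1.399), 1.32-fold for acox-1 (1.195 to 1.47), 1.23-fold for daf-22 (1.15 to 1.32) and 1.22-fold for maoc-1 (1.09 to 1.37). None of the 4 reached 0.5 log2 unit there, where 11.1% of all genes were lower. Centring each library on its median gene moved this pair by −0.23 and put all 4 genes past 0.5 unit at 15 °C (−0.51 to −0.63 on the log2 scale). Centring moves every gene of a pair equally, so more of all genes pass 0.5 unit downward there too. As deposited or centred, 15.2% of all genes had lower differences than dhs-28 in that pair and 20.9% lower than maoc-1. At 25 °C the centred differences were −0.56 for dhs-28 and daf-22, −0.21 for maoc-1 and −0.14 for acox-1. For dhs-28 the temperature with the larger difference therefore depends on the scaling. The difference of daf-22 was larger at 25 °C under both scalings, though by little with centring. Neither was tested.

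A limma model of strain and temperature, fitted over all genes and 10 libraries, called 0 of the 4 genes between math-33 and N2. The largest differences were −0.48 for dhs-28 (SE 0.12, adjusted p = 0.14) and −0.43 for daf-22 (SE 0.13, adjusted p = 0.186) on the log2 scale. For acox-1 the difference was −0.27 (adjusted p = 0.593) and for maoc-1 −0.25 (adjusted p = 0.397). In that contrast the model called 0.0933% of genes lower and 0.348% higher, and the median difference of all genes was 0.06. Those counts, 15 lower and 56 higher, were 213 and 50 without the math-33 library at 15 °C, 2 and 2 without that at 25 °C, 2 and 1 without N2 at 15 °C and 15 and 170 without N2 at 25 °C.

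Tissue markers were read in the same contrast. The 10 intestinal markers were all lower in math-33, with a median limma difference of −0.43, although 0 of them passed. Their summed level was 3293 to 4427 FPKM in math-33 and 4147 to 6815 FPKM in N2. All 5 muscle markers were also lower, with a median of −0.40 and 0 passing, whereas all 7 oocyte markers (median 0.70) and all 8 sperm markers (median 0.90) were higher, again with 0 passing. The sperm difference lay mostly at 15 °C, where 8 of 8 were higher by at least 0.5 unit (median 1.65), against 1 of 8 at 25 °C (median 0.14). Hypodermal markers were split at 25 °C. Of the 8, 4 were lower in math-33 by at least 1 unit (dpy-7, rol-6, sqt-3 and bli-1), as were 7.16% of all genes. The markers elt-1, elt-3, nhr-23 and lin-26 were higher in math-33 there. Levels of elt-1 were 8.83 FPKM in math-33 and 4.86 FPKM in N2, and those of nhr-23 were 20.9 and 20.1 FPKM. The median of the 8 at 25 °C was −0.83, with a sum of 176 FPKM in math-33 and 443.9 FPKM in N2. At 15 °C the sum of the hypodermal markers was 553 FPKM in math-33 and 603 FPKM in N2. The part of these in the lower levels of the 4 genes was not tested.

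In the daf-2 background, dhs-28 was lower in the strain without math-33 at both temperatures. At 25 °C the dhs-28 level of daf-2;math-33 was 1.25-fold lower (122 FPKM in daf-2;math-33, against 153 FPKM in daf-2, interval 1.19 to 1.32), and maoc-1 was 1.27-fold lower (40.5 FPKM in daf-2;math-33, against 51.6 FPKM in daf-2, interval 1.13 to 1.43). At 15 °C the dhs-28 level of daf-2;math-33 was 1.201-fold lower (1.14 to 1.26). Levels of maoc-1 there were 48.7 FPKM in daf-2;math-33 and 46.03 FPKM in daf-2, with an interval of the fold that includes no difference.

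The gene daf-22, in which the single mutant was lowest, had 107 FPKM in daf-2;math-33 and 109 FPKM in daf-2 at 25 °C, a fold of 0.980 (0.920 to 1.04). At 15 °C the fold was 1.08 (1.01 to 1.14). Both acox-1 folds included no difference, at 1.09 (0.977 to 1.22) at 25 °C and 1.06 (0.97 to 1.16) at 15 °C. None of these 8 differences reached 0.5 log2 unit, which 21.6% of all genes passed upward and 14.7% downward at 25 °C, and 21.8% upward and 7.37% downward at 15 °C.

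Fitted over both temperatures, daf-2;math-33 minus daf-2 was −0.29 for dhs-28 (SE 0.12, adjusted p = 0.316) and −0.13 for maoc-1 (SE 0.14, adjusted p = 0.73). It was 0.10 for acox-1 (adjusted p = 0.891) and 0.04 for daf-22 (adjusted p = 0.933), and both of these turned negative when each library was centred on its median gene (−0.05 and −0.12). With that centring all 4 genes had negative differences at both temperatures, including maoc-1 at 15 °C (−0.10), acox-1 (−0.09 at 15 °C and −0.01 at 25 °C) and daf-22 (−0.08 at 15 °C and −0.16 at 25 °C). The median of all genes turned negative as well, from 0.081 to −0.075 in limma, and acox-1 lay above that median. A negative sign after centring is therefore not particular to the 4 genes. Without centring, the model called 0 of the 4 genes, 0.0124% of all genes lower and 0 higher. The counts, 2 lower and 0 higher, reached 50 and 59 without the daf-2 library at 15 °C and 13 and 147 without N2 at 15 °C. Sperm markers differed most of the tissue lists in this comparison, with 8 of 8 higher by at least 0.5 unit at 25 °C (sums of 449 FPKM in daf-2;math-33 and 111 FPKM in daf-2) and 6 of 8 at 15 °C (159.7 FPKM in daf-2;math-33 and 55.1 FPKM in daf-2). Their part in the difference of dhs-28 was not tested. Whether the effect of math-33 loss differs with the background was tested as an interaction, which was largest for daf-22 (0.47, SE 0.19, adjusted p = 0.571). It passed for 0 of the 4 genes and for 0 of all genes, of which 1390 had an unadjusted p under 0.05 (without the daf-2 library at 25 °C, 3 genes passed).

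Setting daf-2 against daf-16;daf-2 addresses which levels depend on DAF-16 while DAF-2 is impaired, mainly at 25 °C. There the acox-1 level of daf-2 was 1.69-fold lower (25.6 FPKM, against 43.3 FPKM in daf-16;daf-2, interval 1.54 to 1.87), the largest of all 60 differences. It passed 0.5 log2 unit, as 15.6% of all genes did in that direction. At 15 °C acox-1 was 1.15-fold higher in daf-2 (34.8 FPKM, against 30.4 FPKM in daf-16;daf-2, interval 1.04 to 1.26). Without the daf-16;daf-2 library at 25 °C, the fitted difference over both temperatures was 0.105 in place of −0.27.

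At 25 °C the other 3 genes differed less between these strains, whereas at 15 °C maoc-1 differed most. The hydratase gene maoc-1 was lower in daf-2 at both temperatures, 1.14-fold at 25 °C (interval 1.03 to 1.27) and 1.32-fold at 15 °C (1.19 to 1.47). The dehydrogenase gene dhs-28 was higher in daf-2, 1.09-fold at 25 °C (1.03 to 1.14) and 1.11-fold at 15 °C (1.05 to 1.16). The thiolase gene daf-22 had folds below 1 in daf-2, 0.922 at 25 °C (0.868 to 0.979) and 0.981 at 15 °C (0.919 to 1.05). RNA folds of successive steps thus lay on different sides of 1 in the FPKM as deposited, with 1 library per group. The dhs-28 difference at 25 °C was 0.12 on the log2 scale. Centring each library on its median gene moved that pair by −0.09.

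limma gave differences, daf-2 minus daf-16;daf-2, of −0.27 for acox-1 (SE 0.24, adjusted p = 0.678), −0.29 for maoc-1 (SE 0.14, adjusted p = 0.465), 0.13 for dhs-28 (SE 0.12, adjusted p = 0.695) and −0.07 for daf-22 (SE 0.13, adjusted p = 0.862). None of the 4 passed, in a contrast where 0.0311% of genes were called higher and 0.00622% lower. The counts, 5 higher and 1 lower, were 112 and 57 without the daf-2 library at 15 °C. The intestinal markers were mixed at 25 °C, with a median of −0.57. Of the 10, 6 were lower in daf-2 by at least 0.5 unit and 3 were higher by at least 0.5 unit. Their sum was 3492 FPKM in daf-2 and 5210 FPKM in daf-16;daf-2, of which asp-1 made up 2515 and 3856 FPKM. Of the oocyte markers 5 of 7 were lower by at least 0.5 unit in that pair, with a median of −0.73 and a sum of 599.9 FPKM in daf-2 and 795 FPKM in daf-16;daf-2. The part of both lists in the acox-1 difference was not tested.

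Against N2, daf-2 carried more dhs-28 at both temperatures, 1.25-fold at 25 °C (153 FPKM in daf-2, against 122 FPKM in N2, interval 1.19 to 1.33) and 1.19-fold at 15 °C (178 FPKM in daf-2, against 150.2 FPKM in N2, 1.13 to 1.24). Folds of acox-1 were 0.821 (0.738 to 0.913) at 25 °C and 0.945 (0.866 to 1.03) at 15 °C. Folds of maoc-1 were 1.08 (0.972 to 1.21) at 25 °C and 0.854 (0.771 to 0.947) at 15 °C, and those of daf-22 were 0.994 (0.933 to 1.06) and 0.977 (0.920 to 1.04). The fitted difference of dhs-28 was 0.29 (adjusted p = 0.366), and 0 of the 4 genes passed. In this contrast limma called 0 of all genes, and 2189 had an unadjusted p under 0.05. Without the daf-2 library at 15 °C it called 227 genes higher and 69 lower, and without N2 at 15 °C 3 higher and 17 lower. At 25 °C the oocyte markers summed to 599.9 FPKM in daf-2 and 1089.8 FPKM in N2, and the sperm markers to 111 FPKM in daf-2 and 318 FPKM in N2, whose part in these values was not tested.

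Between daf-16;daf-2 and N2, the acox-1 level of daf-16;daf-2 was 1.39-fold higher at 25 °C (43.3 FPKM, against 31.1 FPKM in N2, interval 1.26 to 1.53) and 1.21-fold lower at 15 °C (30.4 FPKM, against 36.8 FPKM in N2, 1.095 to 1.34). The gene maoc-1 was higher at both temperatures, 1.24-fold at 25 °C (1.11 to 1.39) and 1.13-fold at 15 °C (1.02 to 1.25). Folds of dhs-28 were 1.15 (1.09 to 1.22) and 1.07 (1.02 to 1.13), and those of daf-22 were 1.08 (1.01 to 1.15) and 0.996 (0.933 to 1.06), at 25 and 15 °C. limma differences were 0.10 to 0.24 for acox-1, maoc-1 and dhs-28 and 0.05 for daf-22, with adjusted p from 0.698 for maoc-1 to 0.929 for daf-22. The difference of acox-1 was −0.28 without the daf-16;daf-2 library at 25 °C. Here too limma called 0 of all genes, and 1182 had an unadjusted p under 0.05; without the daf-2 library at 15 °C it called 17 higher and 4 lower, and without that at 25 °C 17 higher and 3 lower. The sperm markers at 25 °C summed to 129 FPKM in daf-16;daf-2 and 318 FPKM in N2. The oocyte markers at 15 °C summed to 293 FPKM in daf-16;daf-2 and 490.5 FPKM in N2. In limma all 8 germline markers were lower in daf-16;daf-2 (median −0.51) and 8 of 10 intestinal markers higher (median 0.10), with 0 passing. At 25 °C the intestinal markers summed to 5210 FPKM in daf-16;daf-2 and 4147 FPKM in N2. The hypodermal markers there summed to 581 and 443.9 FPKM. The part of these lists was not tested.

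**Figure D2:**
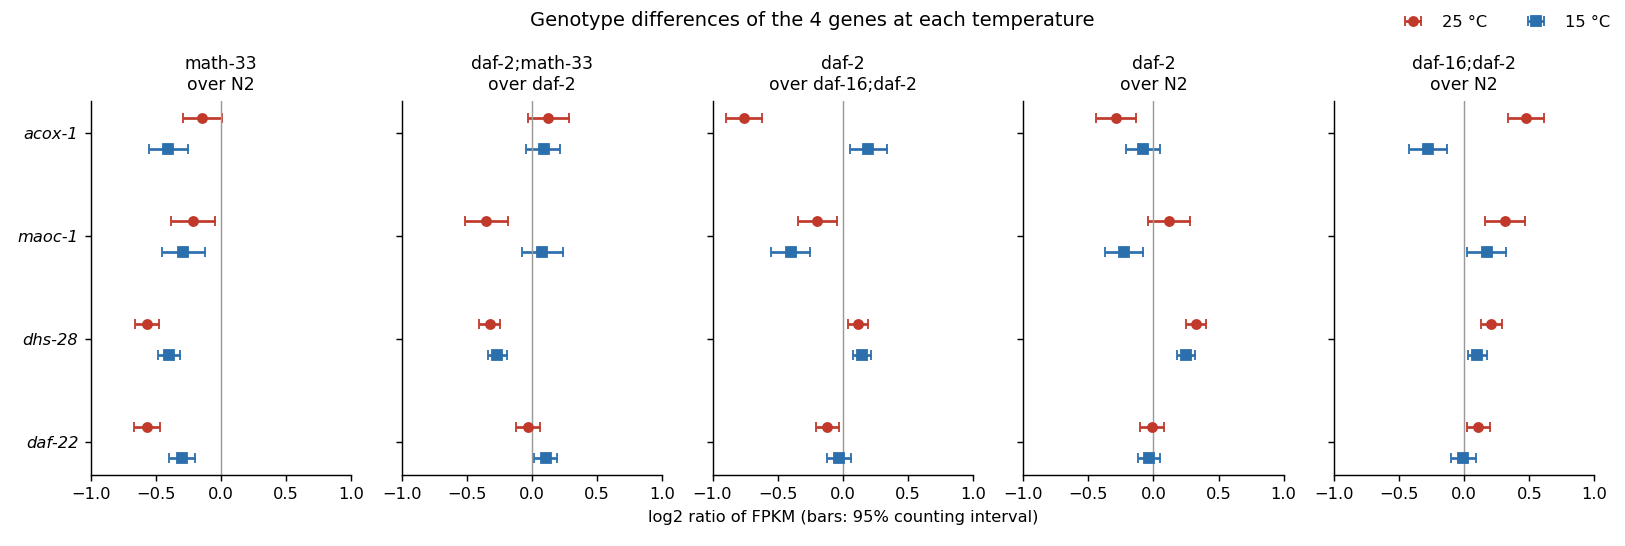
Log2 ratio of FPKM between the strains named above each panel, at 25 °C (red circles) and 15 °C (blue squares); bars are 95% counting intervals and the grey line marks equal levels. All points of math-33 over N2 lie left of the line, and acox-1 in daf-2 over daf-16;daf-2 lies far left at 25 °C (a fold of 0.591) and right of it at 15 °C (1.15).

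Growth for 22 hr at 25 °C was accompanied by lower dhs-28 in all 5 strains. The fold lower at 25 °C was 1.22 in daf-2;math-33 (interval 1.15 to 1.29), 1.17 in daf-2 (1.11 to 1.22), 1.15 in daf-16;daf-2 (1.09 to 1.21), 1.38 in math-33 (1.29 to 1.48) and 1.23 in N2 (1.17 to 1.302). No interval reached equality. At 25 °C dhs-28 ranged over 82.3 to 153 FPKM and at 15 °C over 114 to 178 FPKM, so the temperatures overlap when strains are set aside.

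The thermal difference of dhs-28 was the only one of the 4 genes that passed in limma, at −0.29 on the log2 scale (SE 0.08, adjusted p = 0.0387). The model called 4.68% of all genes lower at 25 °C and 14.6% higher, with a median of 0.09 over all genes. The call was near the threshold of 0.05. It did not pass in any of the 10 fits that left out 1 library (−0.32 to −0.25, adjusted p from 0.06 to 0.112), nor with all genes tested (adjusted p = 0.0814) or without a mean-variance trend (adjusted p = 0.0901), though the direction stayed. An exact two-sided sign-flip permutation test over the 5 strains gave p = 0.0625, the smallest that 5 pairs allow.

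The other 3 genes had no common direction at 25 °C in the FPKM as deposited. Levels of acox-1 were lower in daf-2;math-33 (1.33-fold, interval 1.197 to 1.47), daf-2 (1.36-fold, 1.23 to 1.503) and N2 (1.18-fold, 1.07 to 1.303), at a fold of 1.01 in math-33 (0.909 to 1.13) and 1.42-fold higher in daf-16;daf-2 (1.29 to 1.57). Of the 3 strains that carry daf-2(e1370), the one without daf-16 had the opposite sign, with 1 library per group. The mean difference over strains was −0.11 (SD 0.38, n = 5, exact sign-flip permutation p = 0.625), and limma gave −0.11 (SE 0.15, adjusted p = 0.638).

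For maoc-1 the level at 25 °C was lower in daf-2;math-33 (1.201-fold, interval 1.06 to 1.35) and N2 (1.13-fold, 1.02 to 1.26) and 1.12-fold higher in daf-2 (1.01 to 1.24). The intervals of daf-16;daf-2 and math-33 included no difference, at folds of 0.972 and 0.928. limma gave −0.08 (SE 0.09, adjusted p = 0.542). The sign-flip test gave p = 0.3125 (exact permutation, n = 5). With each library centred on its median gene, maoc-1 was lower at 25 °C in 5 of 5 strains (−0.45 to −0.08, exact permutation p = 0.0625), although limma did not call it (adjusted p = 0.108). With that centring the median of all genes with temperature was −0.08 in limma, so a test against 0 favours negative signs. Set against the median difference of all genes in each pair, maoc-1 was lower in 4 of 5 strains (−0.318 to 0.038).

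The thiolase gene daf-22 was 1.14-fold higher at 25 °C in daf-16;daf-2 (interval 1.07 to 1.22), 1.08-fold higher in daf-2 (1.01 to 1.14) and 1.14-fold lower in math-33 (1.05 to 1.23). Folds in daf-2;math-33 (0.979) and N2 (1.06) were within counting error of equality. The mean over strains was 0.03 (SD 0.14, n = 5, exact sign-flip permutation p = 0.625), and limma gave 0.03 (SE 0.08, adjusted p = 0.81). Centring each library on its median gene shifted temperature differences by −0.17 on average. This turned that of daf-22 to −0.14 (lower in 4 of 5 strains) and left those of acox-1 (−0.28), maoc-1 (−0.25) and dhs-28 (−0.46) negative. The median of all genes in limma was −0.08 after centring, against 0.089 before.

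Tissue markers also changed with temperature, where limma called 4.68% of all genes lower at 25 °C and 14.6% higher. Of 10 intestinal markers 4 fell at 25 °C in limma (elt-2, pept-1, cpr-1 and asp-1) and 0 rose, with a median of −0.37. Their sum was 3293 to 5210 FPKM at 25 °C and 4427 to 6910 FPKM at 15 °C. Of 5 muscle markers 3 fell, and of 5 neuronal markers 2 fell, while 7 of 7 oocyte, 5 of 8 sperm and 2 of 8 germline markers rose. None of 8 hypodermal markers passed. The part of these in the difference of dhs-28 was not tested.

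**Figure D3:**
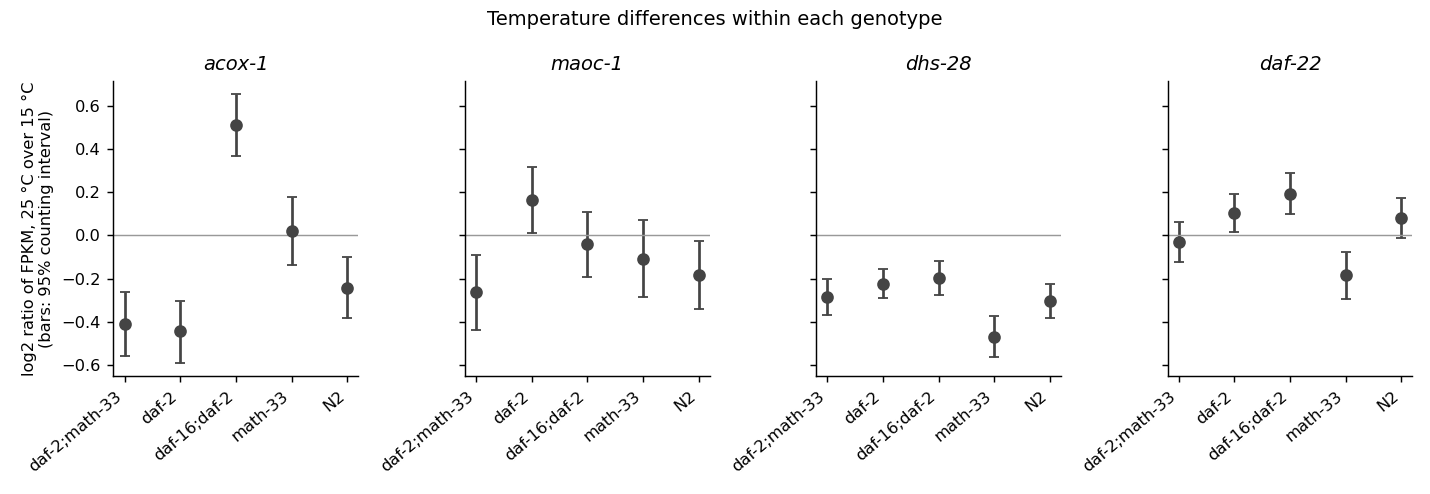
Log2 ratio of FPKM at 25 °C over 15 °C within each strain; points are single pairs of libraries, bars are 95% counting intervals and the grey line marks equal levels. All 5 points of dhs-28 lie below the line, while acox-1 lies below it in 3 strains and at a fold of 1.42 in daf-16;daf-2.

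The 4 genes of one pathway followed each other only loosely over the 10 libraries, which share temperature and strain. Pearson's r of log2(FPKM + 1) was highest for dhs-28 with daf-22 (0.72), but Spearman's rho was 0.10 and r was −0.50 without the 2 libraries farthest from the median of dhs-28. For maoc-1, r was 0.62 with dhs-28 (rho 0.58, 0.66 without 2 libraries) and 0.57 with daf-22 (rho 0.43, 0.56 without 2). For acox-1, r was 0.50 with maoc-1, 0.48 with daf-22 and 0.40 with dhs-28, and without 2 libraries it was 0.31, 0.23 and 0.45. These values describe 10 libraries and carry no test.

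The genes whose pattern was most like each of the 4 were sought among 10063 genes with a mean of at least 5 FPKM, by Pearson's r over the 10 libraries. Nearest to dhs-28 were fozi-1 (r = 0.99), a zinc finger factor, the collagen genes col-10 (0.98) and col-144 (0.97), the glucocerebrosidase gene gba-4 (0.98) and Y73B6BL.35, now nlp-71 (0.97). These ranged more widely than dhs-28 itself: fozi-1 ran between 4.31 and 23.4 FPKM and col-10 between 117 and 1126 FPKM. For this gene even the 100th in order had r = 0.91.

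Nearest to maoc-1 were Y48E1B.8 (r = 0.89), prx-5 (0.89), eff-1 (0.88), oac-51 (0.88) and M04C9.3 (0.87). Of these, prx-5 encodes the receptor that brings enzymes into the peroxisome, and it varied as little as maoc-1 (10.7 to 15.8 FPKM). Nearest to acox-1 were ttr-31 (0.89), F14B6.6 (0.89), the proton pump subunit gene vha-1 (0.88), Y71G12B.23 (0.88) and Y38F2AR.9, now sec-61.B (0.87). Nearest to daf-22 were the intermediate filament gene ifb-1 (0.95), kel-8 (0.93), T03G11.6, now metl-9 (0.92), the gene now called dbd-15 (0.92) and dct-5 (0.91). Without the 2 libraries farthest from the median of daf-22, r was 0.80 for ifb-1 but 0.14 for kel-8, −0.21 for dbd-15 and −0.07 for dct-5.

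The oxidase step has further genes, of which 6 were measured and all passed the expression filter. In C. elegans the oxidases work as dimers, and their combinations set which chain lengths are shortened. The level of C48B4.1 (acox-1.5) was the highest of the 7 in 10 of 10 libraries, at 31.5 FPKM in math-33 at 25 °C to 144 FPKM in daf-16;daf-2 at 15 °C. The share of acox-1 in the summed level of the 7 lay between 8.74% (daf-16;daf-2, 15 °C) and 25.2% (math-33, 25 °C). How reads of near-identical oxidase genes were assigned is stated in no source used here, so levels of single paralogs are uncertain.

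All 6 other oxidases varied more than acox-1. The level of F08A8.2 (acox-1.2) ran between 7.64 FPKM (math-33, 25 °C) and 88.6 FPKM (daf-16;daf-2, 15 °C), an 11.6-fold range, against 1.69-fold for acox-1. For C48B4.1 the range was 4.57-fold and for F08A8.3 (acox-1.3), the lowest of the 7, it was 7.83-fold. F59F4.1 (acox-1.6) ranged 3.26-fold, F58F9.7 (acox-3) 2.44-fold and F08A8.4 (acox-1.4) 2.31-fold. In 4 of these 6 genes the lowest library was math-33 at 25 °C and the highest daf-16;daf-2 at 15 °C.

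With temperature, 1 of the 6 other oxidases fell and 0 rose, where limma called 4.68% of all genes lower at 25 °C and 14.6% higher. C48B4.1 had 61.6 FPKM in daf-2;math-33, 78.2 FPKM in daf-2, 70.3 FPKM in daf-16;daf-2, 31.5 FPKM in math-33 and 58.7 FPKM in N2 at 25 °C. At 15 °C it had 79.2 FPKM in daf-2;math-33, 131 FPKM in daf-2, 144 FPKM in daf-16;daf-2, 46.2 FPKM in math-33 and 105 FPKM in N2. It was lower at 25 °C in every strain, by −0.70 in limma (SE 0.11, adjusted p = 0.011), a call that held in 10 of 10 fits without 1 library. The differences of F08A8.2 (−0.67, adjusted p = 0.112), F08A8.3 (0.06, adjusted p = 0.869) and F08A8.4 (0.20, adjusted p = 0.231) did not pass. The median of the 6 was −0.37, against 0.09 over all genes.

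Between strains, 0 of the 6 passed in any contrast. The largest difference was that of F08A8.2, which had 12.3 FPKM in daf-2 and 88.6 FPKM in daf-16;daf-2 at 15 °C (a fold of 0.139, interval 0.125 to 0.154) and 18.6 FPKM in daf-2 and 39.5 FPKM in daf-16;daf-2 at 25 °C (0.470). limma gave −1.90 for it (SE 0.41, adjusted p = 0.206). In math-33 minus N2 the median of the 6 was −0.63, against 0.06 over all genes, with −1.09 for F08A8.2 (adjusted p = 0.237), −1.02 for C48B4.1 (adjusted p = 0.0742), −0.08 for F08A8.4 and 0.37 for F08A8.3. The difference of acox-1 in that contrast was −0.27, and whether paralogs differ in this was not tested.

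**Figure D4:**
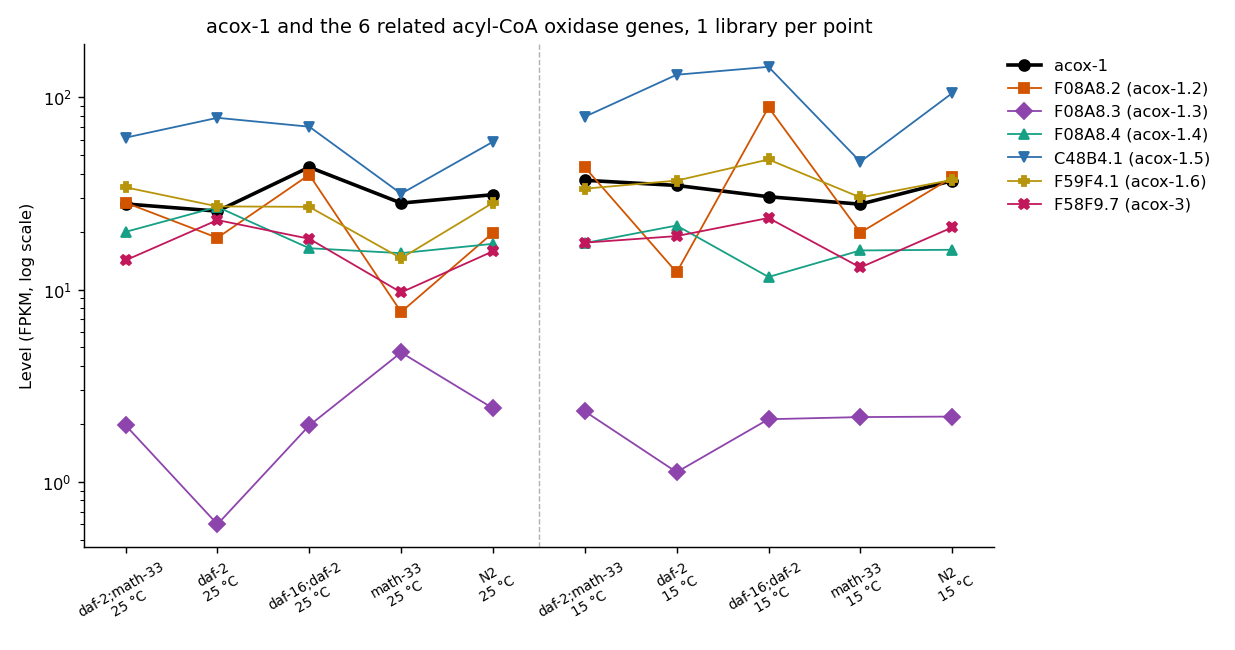
Level in FPKM (log axis) of acox-1 (black) and the 6 related oxidase genes in the 5 strains at 25 °C (left) and 15 °C (right of the dashed line), 1 library per point; lines join points of a gene to guide the eye. C48B4.1 is the uppermost in all 10 libraries, and F08A8.2 spans 7.64 to 88.6 FPKM while acox-1 spans 25.6 to 43.3 FPKM.

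Further genes of the peroxisome were read in the temperature contrast, where limma called 4.68% of all genes lower at 25 °C and 14.6% higher. Of 10 genes for transport, other β-oxidation steps and antioxidant defence, 1 fell at 25 °C and 0 rose. This was the ABC transporter gene pmp-1 (−0.46, SE 0.08, adjusted p = 0.015 in limma), with 33.8 to 54.5 FPKM at 25 °C and 51.06 to 76.8 FPKM at 15 °C. The next lowest difference was that of pmp-2 (−0.18, adjusted p = 0.245), and the highest were those of nlt-1 (0.34, adjusted p = 0.126) and pmp-3 (0.31, adjusted p = 0.0693). Of 11 peroxins, which build the organelle and import its enzymes, prx-3 fell (−0.59, SE 0.12, adjusted p = 0.0218) and 0 rose. Values of prx-1 (−0.37, adjusted p = 0.174), prx-14 (0.16, adjusted p = 0.34) and prx-11 (0.30, adjusted p = 0.331) did not pass.

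Of 16 genes that supply precursors or attach further groups to ascarosides, 3 rose at 25 °C and 1 fell, in a contrast where 14.6% of all genes rose and 4.68% fell, so the counts of this list are close to those shares. The one that fell was fasn-1, the fatty acid synthase (−0.78, SE 0.09, adjusted p = 0.00694 in limma), with 79.2 to 138 FPKM at 25 °C and 142 to 251 FPKM at 15 °C, so that the temperatures did not overlap. Those that rose were the carboxylesterase genes C23H4.2, now cest-8 (0.79, adjusted p = 0.0357), and ZC376.2, now cest-2.2 (0.66, adjusted p = 0.0377), and the tyrosine decarboxylase gene tdc-1 (0.54, adjusted p = 0.0305). Each of these 3 passed in only 2 of 10 fits without 1 library, against 10 of 10 for fasn-1 and pmp-1 and 6 of 10 for prx-3. Neither C23H4.2 nor ZC376.2 nor tdc-1 passed when libraries were centred or quantile-normalized. With all genes tested, fasn-1 alone passed of the 7 pathway genes that changed with temperature, and C48B4.1 had an adjusted p = 0.0796 in limma. The elongase gene elo-2 had the next lowest difference (−0.20, adjusted p = 0.192).

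The list of ascaroside receptors and their signalling partners could scarcely be read in whole worms. Of its 11 genes 7 did not pass the expression filter, among them the receptor genes srbc-64, srbc-66, srg-36 and srg-37. The other 4 were daf-37 and daf-38 (frpr-20 and gnrr-8 in the table) and the G protein genes gpa-2 and gpa-3, with 0.416 to 3.01 FPKM, and 0 of them passed in any contrast.

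Between strains, 0 of the 10 transport and β-oxidation genes, 0 of the 11 peroxins and 0 of the 16 precursor and assembly genes passed in any of the 5 genotype contrasts or the interaction. In math-33 minus N2 the medians of these lists were −0.24, 0.02 and −0.15, against 0.06 over all genes. The lowest values there were −0.55 for the gene now called lonp-2 (adjusted p = 0.222), −0.58 for prx-6 (adjusted p = 0.275) and −0.72 for acs-7 (adjusted p = 0.203), which links indole groups to ascarosides. The highest were 0.31 for pmp-3 (adjusted p = 0.349), 0.23 for prx-19 (adjusted p = 0.457) and 0.81 for tdc-1 (adjusted p = 0.14).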

How the data were processed

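The authors deposited 1 table of FPKM values for 47467 transcripts in 10 libraries. Per the submitters' processing notes, STAR, HOMER, edgeR and ce10 were used; no source used here gives their roles or versions. Coordinates are printed as deposited. Transcripts without a gene name (1104, with 1.723 to 1.974% of summed FPKM) were left out. Current names come from RefSeq's WBcel235 gene table (99.0% of symbols matched).

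The step of low FPKM values gave each library's depth, with 100.0% of values whole within rounding and 0.01%, that is 12.61 to 17.61 M read pairs. Folds between 2 libraries carry exact 95% intervals for a ratio of 2 pair counts, which cover counting error only. No count test was run, since the values are FPKM. limma 3.58.1 (R 4.3.3) with a mean-variance trend was fitted to log2(FPKM + 1), a scale that understates changes of low genes, with genotype and temperature terms (4 residual degrees of freedom) and Benjamini-Hochberg adjustment over 16085 genes at 0.05. Its spread is that of strain-specific temperature responses, not of replicate cultures. The code was tested on simulated data.

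The members and lists were chosen with earlier results of these data known. By rule, the 4 members, the 2 highest and 2 lowest differences of each list and the 5 genes most like each member are named. The alternatives were another pseudocount (0.1), other filters (none, 5 FPKM, transcripts of at least 200 bases), summed transcripts, median centring, quantile normalization, no trend and leaving out each library.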

Additional observations from a re-analysis of the deposited data

Results flagged for a closer look

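Some differences between 2 libraries had opposite directions in 2 strains or at 2 temperatures, each with a counting interval that left out equality. Such intervals were common: in single pairs 19.3 to 36.9% of all genes were higher by that rule and 15.4 to 32.4% lower. With 1 library per group these oppositions were not tested, and their cause was not tested.

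The level of acox-1 at 25 °C over 15 °C had a fold of 1.425 in daf-16;daf-2, against 0.753 in daf-2;math-33, 0.735 in daf-2 and 0.846 in N2. For the same gene the fold of daf-2 over daf-16;daf-2 was 0.591 at 25 °C and 1.145 at 15 °C, and that of daf-16;daf-2 over N2 was 1.390 at 25 °C and 0.826 at 15 °C. All 3 oppositions share the library of daf-16;daf-2 at 25 °C, so they are not separate observations.

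The level of maoc-1 at 25 °C over 15 °C had a fold of 1.121 in daf-2, against 0.833 in daf-2;math-33 and 0.882 in N2. With each library centred on its median gene, the daf-2 difference turned negative.

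The level of daf-22 at 25 °C over 15 °C had folds of 1.144 in daf-16;daf-2 and 1.075 in daf-2, against 0.880 in math-33. At 15 °C its fold was 1.076 in daf-2;math-33 over daf-2, against 0.812 in math-33 over N2. With each library centred on its median gene, the daf-22 values turned to −0.136 for temperature in daf-2 and to −0.077 for daf-2;math-33 minus daf-2 at 15 °C, so neither stood opposed to math-33 any longer. The limma interaction of math-33 with daf-2, over both temperatures, was 0.47 for daf-22 with an adjusted p = 0.571.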

How the results depend on the processing

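Without replicates the fitted spread is the scatter of 5 strain-specific temperature differences, and leaving out 1 library also takes its strain out of the temperature comparison. The temperature tests compare libraries within a strain. No pairing by replicate number was possible because each group has 1 library and the labels give no such numbers. Median centring moved temperature differences by −0.240 to −0.00613, so directions of differences under about 0.2 depend on scaling.

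The number of the 4 genes passing with temperature was 1. It was 0 with all genes tested, 0 without a trend and 0 to 0 over the fits without 1 library. In all 6 other contrasts it stayed 0 under each alternative. The number of the 60 pairwise differences past 0.5 log2 unit was 3, but 11 with centring and 8 with quantile normalization. None of the 60 passed 1 unit under any scaling. Centring moved all genes of a pair equally, by −0.240 to 0.056 depending on the pair, so the share of all genes past 0.5 unit moves as well. That share is not given here for either rescaling, so the higher counts are not set against a background.

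Signs turned only in values that did not pass. With centring, daf-22 turned to −0.136 with temperature (limma and the mean over strains) and to −0.118 in daf-2;math-33 minus daf-2, where acox-1 also turned, to −0.053. The centred median of all genes in limma was −0.08 with temperature and −0.075 in daf-2;math-33 minus daf-2. Quantile normalization gave −0.024 for daf-22 with temperature. Centred pairwise values were −0.077 for daf-22 in daf-2;math-33 minus daf-2 at 15 °C, and −0.078 for maoc-1 and −0.136 for daf-22 at 25 °C minus 15 °C in daf-2.

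Without 1 library, differences with temperature ran over −0.007 to 0.086 for daf-22. In daf-2;math-33 minus daf-2 they ran over −0.097 to 0.303 for acox-1, −0.285 to 0.022 for maoc-1 and −0.006 to 0.082 for daf-22. In daf-2 minus daf-16;daf-2 they ran over −0.653 to 0.105 for acox-1 and −0.172 to 0.028 for daf-22. In daf-2 minus N2 they ran over −0.377 to 0.023 for acox-1, −0.208 to 0.099 for maoc-1 and −0.065 to 0.023 for daf-22. In daf-16;daf-2 minus N2 they ran over −0.282 to 0.476 for acox-1 and −0.049 to 0.151 for daf-22, and the interaction of maoc-1 ran over −0.037 to 0.270. The cause was not tested. The alternatives for the 7 further pathway genes were chosen after seeing the data.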

Other observations

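The highest fitted differences between daf-2 and daf-16;daf-2 among the precursor and assembly genes and among the transport and β-oxidation genes were those of cest-1.1 and ech-9, and both had their highest level in daf-2 at 25 °C. The carboxylesterase gene T02B5.1, now cest-1.1, stood at 2.51 FPKM in daf-2;math-33, 20.2 FPKM in daf-2, 0.452 FPKM in daf-16;daf-2, 0.892 FPKM in math-33 and 0.502 FPKM in N2 at 25 °C. At 15 °C it stood at 2.65 FPKM in daf-2;math-33, 5.74 FPKM in daf-2, 3.39 FPKM in daf-16;daf-2, 0.849 FPKM in math-33 and 1.52 FPKM in N2. The hydratase-family gene ech-9 stood at 3.11 FPKM in daf-2;math-33, 27.2 FPKM in daf-2, 3.46 FPKM in daf-16;daf-2, 2.10 FPKM in math-33 and 1.64 FPKM in N2 at 25 °C, and at 2.23 to 8.02 FPKM at 15 °C. Neither passed in limma. For cest-1.1 the difference was −1.74 in daf-2;math-33 minus daf-2 (adjusted p = 0.292) and 2.24 in daf-2 minus daf-16;daf-2 (adjusted p = 0.294), and for ech-9 these were −1.51 (adjusted p = 0.378) and 1.096 (adjusted p = 0.575).

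The lipid-supply genes pod-2, let-767 and elo-1, chosen after their values were seen, also had their highest level in daf-2 at 25 °C. The acetyl-CoA carboxylase gene pod-2 stood there at 275 FPKM, against 190.5 FPKM in daf-16;daf-2, let-767 at 507 FPKM, against 386 FPKM in daf-16;daf-2, and the elongase gene elo-1 at 400.5 FPKM, against 326 FPKM in daf-16;daf-2. Other lipid-supply genes of the same list did not peak there: fasn-1 had 98.6 FPKM in daf-2 and 138 FPKM in daf-16;daf-2 at 25 °C, with its highest level in daf-16;daf-2 at 15 °C (251 FPKM), and elo-2 was highest in daf-2 at 15 °C (343 FPKM). Each is 1 library per group.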
